A study of Equus caballus with 8 samples.

Results

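The 10 genes described here encode the vasoconstrictor endothelin-1, the enzyme that activates it and its receptors (EDN1, ECE1, EDNRA, EDNRB), the vasodilator adrenomedullin and its receptor parts (ADM, CALCRL, RAMP2, RAMP3), the endothelial nitric oxide synthase (NOS3) and the angiogenic ribonuclease angiogenin (ANG). They were chosen by name, as listed genes of these systems, with earlier results of these data known, and matched to horse NCBI Gene IDs. All 10 were among the 24942 genes of the count table, and all 10 were among the 15342 genes tested. Endometrial biopsies came from 4 Bavarian Warmblood mares. Every mare gave 1 pregnant and 1 cyclic library, the pregnant one at Day 12 with a conceptus and the cyclic one at Day 12 without, in an order described as random. Per the labels' protocols, ovulation had been induced with 1500 IU of human chorionic gonadotropin in all mares, semen of 1 stallion was used for insemination, the embryonic vesicle was seen by ultrasound in the pregnant state, and the uterus was flushed before the biopsy. The ages of the mares are not stated there.

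Endothelin-1 is cut from an inactive precursor by endothelin converting enzyme and acts on type A receptors, which contract vascular and uterine smooth muscle, and on type B receptors, which on endothelium release nitric oxide and prostacyclin and clear the peptide. Adrenomedullin relaxes vessels through CALCRL, a receptor that reaches the cell surface with a RAMP partner, RAMP2 and RAMP3 giving adrenomedullin receptors and RAMP1 the receptor of calcitonin gene-related peptide (CGRP). In the uterus these systems are known for setting blood flow, vessel growth and permeability around implantation.

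Of the 10 genes, 6 changed between the cycle and pregnancy, 5 of them higher (EDN1, ECE1, EDNRA, RAMP2, ANG) and 1 lower (EDNRB). A gene is said to have changed where the adjusted p was below 0.05 in edgeR's quasi-likelihood test with the mare as block and Benjamini-Hochberg adjustment over all genes tested. Among all genes, 16.7% changed, 8.53% higher and 8.19% lower. As the 10 genes were chosen with earlier results known, these shares are no test of them as a set. The median log2 fold change of the 10 genes, pregnancy over cycle, was 0.51, and that of all genes 0.00422. With library totals in place of TMM (trimmed mean of M values) scaling, 1416 genes rose and 864 fell, against 1309 and 1256, and the 10 genes still gave 5 higher and 1 lower. The biopsies hold many cell types, and fewer cells of a type and less RNA per cell cannot be told apart in them. Levels are given as TMM-scaled CPM (read counts relative to the library's scaled total). CPM is not scaled to gene length, so levels are compared between libraries and never between genes.

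Mare 1's pregnant library was the shallowest, with 9.81 M counts, and the other 7 held 15.5 to 16.7 M. Markers of the tissue were present, with the epithelial gene EPCAM at 538 ± 21.9 CPM in cyclic and 508 ± 43.7 CPM in pregnant libraries (SD, n = 4 each).

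**Figure D1:**
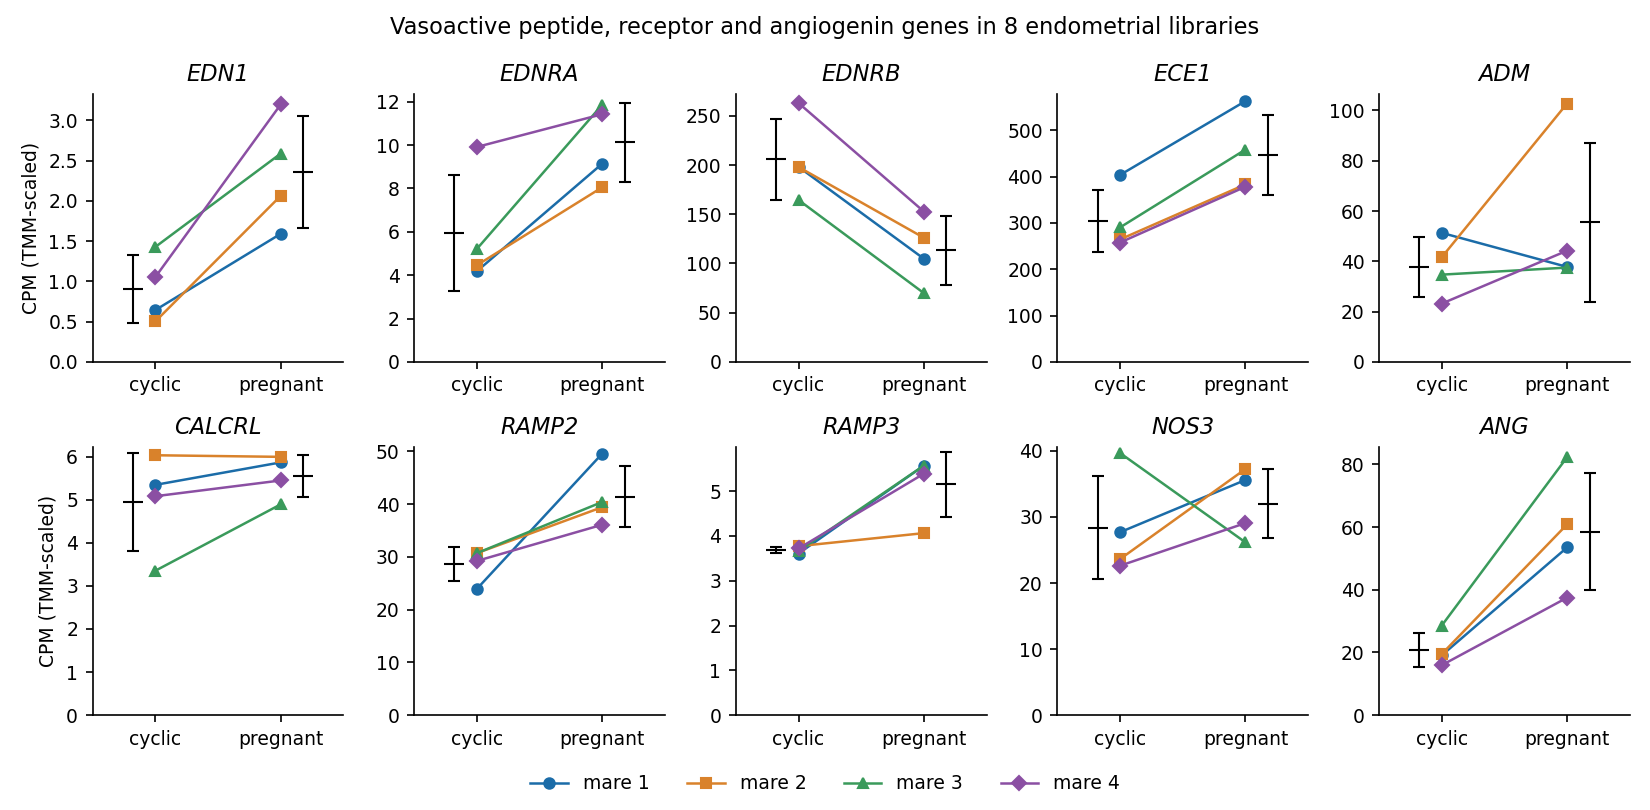
Level of each of the 10 genes in TMM-scaled CPM (vertical axes, from 0) in the cyclic and the pregnant library of each mare, joined by a line per mare, with the group mean ± SD (n = 4) at the side. The lines of EDN1, EDNRA, ECE1, RAMP2, RAMP3 and ANG go up in 4 of 4 mares, those of EDNRB go down in 4 of 4, and those of ADM, CALCRL and NOS3 go both ways.

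EDN1 (Gene ID 100034060), the precursor of endothelin-1, rose in pregnancy. Its levels were 0.644, 0.503, 1.43 and 1.05 CPM in the cyclic libraries of mares 1 to 4 and 1.59, 2.06, 2.59 and 3.20 CPM in the pregnant ones. Every pregnant library was above every cyclic one. The rise was 1.40 ± 0.27 on the log2 scale (SE; adjusted p = 0.00778), or 2.63-fold with a 95% interval of 1.73 to 3.99. The transcript was scarce, with 8 to 23 counts per cyclic and 16 to 54 per pregnant library.

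ECE1 (100071727), the converting enzyme, rose by a narrow range of ratios, 1.39-, 1.45-, 1.58- and 1.47-fold in mares 1 to 4. It stood at 403, 264, 290 and 258 CPM in the cyclic libraries and at 563, 383, 458 and 378 CPM in the pregnant ones. The groups overlapped, because cyclic mare 1 lay above pregnant mares 2 and 4, while the change within each mare was upward. This rise was 0.56 ± 0.08 on the log2 scale (SE; adjusted p = 0.00175).

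EDNRA (100062644), the type A receptor, rose and EDNRB (100033875), the type B receptor, fell. EDNRA had 4.19, 4.46, 5.21 and 9.91 CPM in the cyclic libraries of mares 1 to 4 and 9.15, 8.06, 11.9 and 11.4 CPM in the pregnant ones. Mare 4 already had a high cyclic level and rose 1.15-fold, against 1.81- to 2.28-fold in the other mares, and its cyclic library was the one that overlapped the pregnant group. The log2 fold change of EDNRA was 0.82 ± 0.18 (SE; adjusted p = 0.0131). Leaving out mare 1 or mare 3 ended its call (adjusted p = 0.0686 and 0.0619).

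EDNRB had 198, 198, 164 and 263 CPM in the cyclic libraries and 105, 126, 69.8 and 153 CPM in the pregnant ones. Every pregnant library was below every cyclic one, and mare 4 was highest and mare 3 lowest in each state. The log2 fold change was -0.90 ± 0.10 (SE; adjusted p = 6.61e-04), which is 1.86-fold lower with a 95% interval of 1.60 to 2.16.

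The receptors were also compared by the ratio of EDNRB to EDNRA CPM, in which gene length cancels when libraries are compared. This ratio covers the whole biopsy, and whether the same cells express both receptors was not tested. The ratio was 47.3, 44.4, 31.5 and 26.5 in the cyclic libraries of mares 1 to 4 and 11.5, 15.6, 5.89 and 13.4 in the pregnant ones. It was lower in pregnancy in 4 of 4 mares, by 4.13-, 2.84-, 5.36- and 1.99-fold, with a mean log2 change of -1.74 ± 0.63 (SD, n = 4). The ratio is given as a description, with no test. In the RefSeq table a long non-coding RNA gene overlaps each of the receptor genes, and whether reads of those RNAs were counted with EDNRA or EDNRB is not known.

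**Figure D2:**
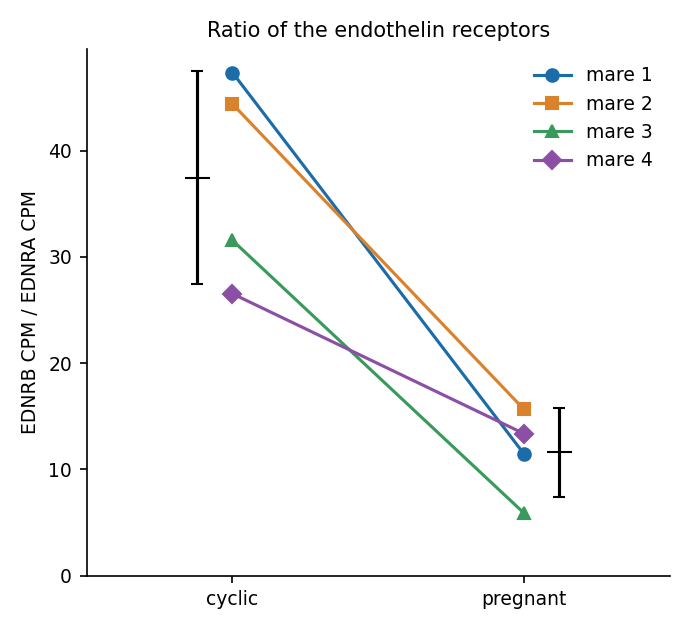
Ratio of EDNRB to EDNRA CPM (vertical axis, from 0) in the cyclic and pregnant library of each mare, with the group mean ± SD (n = 4) at the side. The cyclic values lie between 26.5 and 47.3 and the pregnant ones between 5.89 and 15.6.

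Of the other genes of the endothelin system, MME (100053541), or neprilysin, a surface peptidase that degrades endothelins and other vasoactive peptides, rose from 65.3 ± 23.0 to 92.2 ± 20.8 CPM (SD, n = 4 each; adjusted p = 0.00778). FURIN (100068931), a protease that trims the endothelin precursor ahead of ECE1, was not called (cyclic 1880 ± 280 and pregnant 1834 ± 156 CPM; adjusted p = 0.909). ECE2, a related converting enzyme, was tested and not called. In all, 7 of 9 listed endothelin genes were tested, 4 rose and 1 fell, beside the 16.7% of all genes that changed. The genes of the sister peptides fell below the filter on low counts. EDN2 had 0 to 6 counts per library. EDN3 had 8, 3, 8 and 6 counts in the cyclic libraries of mares 1 to 4 and 23, 8, 34 and 18 in the pregnant ones, more in pregnancy in each mare. With no filter EDN3 was tested and passed (adjusted p = 0.00355). It entered the fit without mare 2 (0.0114) and limma on the deposited scaled values (0.0266) only through its higher pregnant libraries. Those calls are therefore no further support.

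In the adrenomedullin system, a receptor partner rose while the peptide itself and the receptor CALCRL were not called. RAMP2 (100630685), which forms the main adrenomedullin receptor with CALCRL, had 24.0, 30.7, 30.7 and 29.2 CPM in the cyclic libraries of mares 1 to 4 and 49.6, 39.5, 40.4 and 36.1 CPM in the pregnant ones. The groups did not overlap, and mare 1 held the lowest cyclic and the highest pregnant value. RAMP2 rose by 0.52 ± 0.12 on the log2 scale (SE; adjusted p = 0.0230). Without mare 1 it was 0.35 (adjusted p = 0.0571), and without mare 3 the adjusted p was 0.0537.

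RAMP3 (100065542), the alternative partner, had 3.61, 3.77, 3.66 and 3.72 CPM in the cyclic libraries and 5.57, 4.06, 5.57 and 5.39 CPM in the pregnant ones. The groups did not overlap and the value was higher in pregnancy in 4 of 4 mares, but RAMP3 missed the threshold over all genes (log2 fold change 0.47 ± 0.17, SE; adjusted p = 0.0871). Counts were 56 to 99 per library. A long non-coding RNA gene overlaps RAMP3 in the RefSeq table, and reads shared by the pair cannot be told apart without strand.

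ADM (100033857) had 51.3, 41.6, 34.7 and 23.2 CPM in the cyclic libraries of mares 1 to 4 and 37.8, 103, 37.5 and 44.2 CPM in the pregnant ones. It was lower in mare 1, 1.08-fold higher in mare 3, and 2.47- and 1.91-fold higher in mares 2 and 4. The log2 fold change of 0.49 ± 0.36 (SE; adjusted p = 0.458) has a 95% interval of -0.56 to 1.54, which leaves room for a fall as well as for a large rise. CALCRL (100054281) had cyclic levels of 5.34, 6.03, 3.35 and 5.08 CPM and pregnant levels of 5.87, 5.99, 4.89 and 5.45 CPM (log2 fold change 0.19, 95% interval -0.17 to 0.54; adjusted p = 0.470). Neither ADM nor CALCRL was called in any of 13 alternatives.

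Of 15 listed genes of the adrenomedullin and CGRP system 12 were tested. Against the 16.7% of all genes that changed, 5 of them rose and 1 fell, with a median log2 fold change of 0.47. Besides RAMP2 and MME, the risers were RAMP1 (100066550; 9.98 ± 1.55 to 13.9 ± 2.52 CPM, adjusted p = 0.0129), ACKR3 (100057501), a decoy receptor that binds adrenomedullin and the chemokine CXCL12 (22.0 ± 3.03 to 30.4 ± 2.38 CPM, adjusted p = 0.0257), and ADM5 (102150093), a related peptide gene on 15 to 37 counts per library (adjusted p = 0.0279). CRCP (100061681), an intracellular partner of the CGRP receptor that is also a subunit of RNA polymerase III, fell by 0.30 on the log2 scale (adjusted p = 0.0485). The list's calls numbered 1 without mare 1, 3 without mare 3 and 2 without mare 4. CRCP passed in 3 of 13 alternatives and ADM5 in 6 of 12, and neither passed when any 1 mare was left out (adjusted p from 0.0584 to 0.158). ADM5 entered limma on the deposited scaled values (0.0377) only through its pregnant libraries, as its cyclic levels were at most 1.67 CPM. Its pass there is therefore no further support. RAMP1 and ACKR3 were lost without mare 1 (0.0580 and 0.115) and without mare 4 (0.0602 and 0.0781).

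NOS3 (100063339), the endothelial nitric oxide synthase, was not called. It had 27.7, 23.6, 39.7 and 22.6 CPM in the cyclic libraries of mares 1 to 4 and 35.6, 37.3, 26.2 and 29.1 CPM in the pregnant ones. Mares 1, 2 and 4 went up by 1.29- to 1.58-fold and mare 3, with the highest cyclic value, went down. The log2 fold change was 0.19 ± 0.21 (SE; adjusted p = 0.598; 95% interval -0.33 to 0.71). Without mare 3 it was 0.45 and passed (adjusted p = 0.0260).

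The other synthases moved apart. NOS2 (791246), the inducible enzyme, rose from 0.646 ± 0.285 to 1.69 ± 0.476 CPM on 6 to 37 counts per library (SD, n = 4 each; adjusted p = 0.0252), and NOS1 (100051079), the neuronal enzyme, fell from 5.85 ± 2.64 to 3.14 ± 1.48 CPM (adjusted p = 0.0244). CAV1 (100055975), the caveolar protein that binds and restrains NOS3, rose 1.53-fold (adjusted p = 0.0165). ARG2 (100034051), an arginase that competes for the substrate arginine, rose 1.48-fold (adjusted p = 0.00878). Of the enzymes that rebuild arginine from citrulline, ASS1 (100069776) rose 1.60-fold (adjusted p = 0.0267) and ASL (100060801) fell by 0.31 on the log2 scale (adjusted p = 0.0237).

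GUCY1A1 and GUCY1B1, the subunits of the guanylate cyclase that senses nitric oxide, were not called, at 80.5 ± 12.6 and 218 ± 46.4 CPM in cyclic libraries and 83.8 ± 7.45 and 230.0 ± 37.2 CPM in pregnant ones. Of 27 listed nitric oxide and cyclic GMP genes, 24 were tested, 4 rose and 2 fell, with a median log2 fold change of 0.0967. Of all genes, 16.7% changed. The calls of the list numbered 3 without mare 1 and 3 without mare 2. Lost were CAV1, ASL and ASS1 without mare 1 (adjusted p = 0.0816, 0.135 and 0.122), NOS1, NOS2 and ASL without mare 2 (0.0672, 0.0936 and 0.0791), NOS1 and NOS2 without mare 3 (0.100 and 0.0693), and ASS1 and NOS2 without mare 4 (0.0977 and 0.0508). By other methods NOS2 was lost in DESeq2 (0.0542) and ASL with library totals (0.0647).

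ANG (100034041), a secreted ribonuclease that promotes vessel growth, rose by similar ratios in the 4 mares. It stood at 19.1, 19.5, 28.6 and 15.9 CPM in the cyclic libraries of mares 1 to 4 and at 53.5, 60.9, 82.3 and 37.5 CPM in the pregnant ones. Every pregnant library was above every cyclic one, and the ratios were 2.81, 3.12, 2.88 and 2.35. On the log2 scale the rise was 1.48 ± 0.09 (SE; adjusted p = 4.18e-05), a 2.78-fold rise with a 95% interval of 2.44 to 3.18. ANG stood 7th of 15342 genes in order of p. In the RefSeq table the ANG gene overlaps RNASE4, a neighbouring ribonuclease gene that has no row of its own in the count table. RNASE4 could therefore not be tested, and whether its reads were counted as ANG is not known.

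RNH1 (100050482), the cytosolic inhibitor that binds angiogenin, also rose, from 60.5 ± 6.58 to 81.0 ± 16.0 CPM (SD, n = 4 each; log2 fold change 0.41 ± 0.08, SE; adjusted p = 0.00706). PLXNB2, described in human cells as a receptor of angiogenin, was abundant and not called (877 ± 157 and 975 ± 163 CPM; adjusted p = 0.212). The heparan sulphate proteoglycan SDC4 (100070934) rose 1.25-fold (adjusted p = 0.0496) and the RNA-binding protein gene TARDBP (100051482) fell by 0.30 on the log2 scale (adjusted p = 0.0171). Of 10 listed genes 7 were tested, 3 rose and 1 fell, beside the 16.7% of all genes that changed. The list's calls numbered 2 without mare 1 and 2 without mare 2. SDC4 was lost without mares 1, 2 and 4 (adjusted p = 0.211, 0.0848 and 0.162) and TARDBP without mares 1, 2 and 3 (0.0546, 0.0562 and 0.0581), and with library totals both were lost (0.0623 and 0.0686). SDC4 passed in 5 of 13 alternatives, and was also lost in the likelihood ratio test (0.0502), limma-voom (0.0652) and limma on the deposited scaled values (0.0614).

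**Figure D3:**
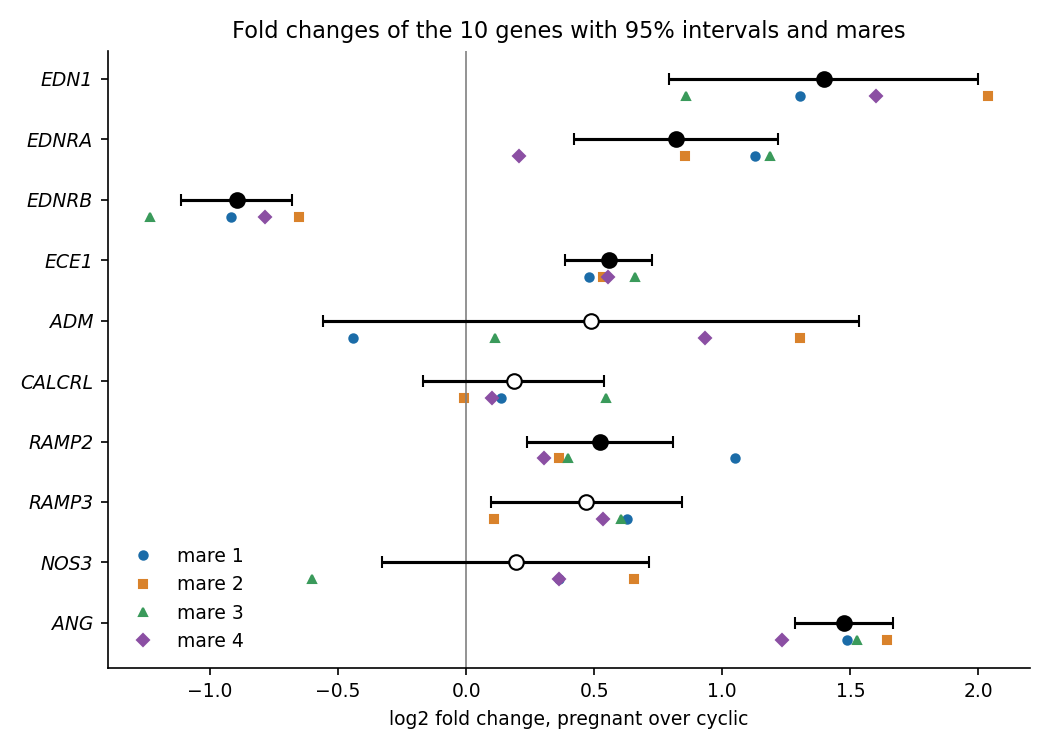
Log2 fold change of pregnancy over cycle for the 10 genes (horizontal axis), with the fitted value and its 95% interval in black, filled where the adjusted p was below 0.05 and open otherwise, and the 4 mares as coloured points beneath. ANG and ECE1 have the mares close together, whereas ADM runs from -0.44 in mare 1 to 1.30 in mare 2.

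The pregnant and cyclic CPM did not overlap for 5 of the 10 genes (EDN1, EDNRB, RAMP2, RAMP3 and ANG), against 10.7% of all genes tested. Differences between mares were called for 3 of the 10 genes in the F-test of the mare terms (3 degrees of freedom), against 15.9% of all genes. These were ANG (adjusted p = 0.00431), EDNRB (0.0130) and ECE1 (0.0131). In each of them 1 mare was highest in both states, namely mare 3 for ANG, mare 4 for EDNRB and mare 1 for ECE1. The within-mare test removes these differences. Without the mare as replicate block only ANG kept its call (adjusted p = 0.0254), while RAMP2 had 0.0591, EDN1 0.0775, EDNRB 0.0840, ECE1 0.135 and EDNRA 0.179. Among the genes that lost their calls, the mare terms were not called for RAMP2 (adjusted p = 0.929), EDN1 (0.190) and EDNRA (0.0946). Why the calls were lost was not tested.

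Genes with the most similar profile were taken as those with the smallest root mean square difference of log2 CPM, centred over the 8 libraries. For ANG these were MFAP4 (0.212), a microfibril protein of stroma, C1QTNF5 (0.212) and the growth factor feedback inhibitor SPRY2 (0.243). For EDNRB they were the calcium pump ATP2A3 (0.144), the guidance receptor ROBO1 (0.169) and the calcium channel subunit CACNB2 (0.171). ECE1 lay nearest to MXRA8 (0.0732), CHST8 (0.0862) and APBB2 (0.102), RAMP2 to SLC26A10 (0.113), LPCAT4 (0.114) and RASSF8 (0.119), EDNRA to A2M (0.112), TF (0.144) and ZBTB7C (0.185), and EDN1 to MGAT3 (0.264), EPHA2 (0.285) and CDA (0.294). Among the 10 genes themselves, the closest pair with a called member was RAMP2 and RAMP3 (0.180), and the gene nearest to EDNRB was 0.627 away. These distances include the change between states and are descriptions over 8 libraries of 4 mares. A small distance does not mean a called change. A2M, TF, CHST8, RASSF8 and EPHA2 were not called (adjusted p from 0.0514 for EPHA2 to 0.216 for TF). TF, CHST8 and CDA did not pass the filter above 2 CPM in 4 libraries, so their distances rest on low levels. Among the called neighbours, CDA passed in 5 of 11 alternatives, SLC26A10 in 5 of 13, ZBTB7C in 8 of 13 and APBB2 in 9 of 13. MGAT3 passed in 11 of 13, and the rest in 12 or 13 of 13.

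Of 39 listed genes of other vasoactive peptide systems 24 were tested, 4 rose and 1 fell (median log2 fold change 0.38), beside the 16.7% of all genes that changed. KNG1 (100068133), the kininogen from which bradykinin is released, rose from 8.53 ± 2.08 to 57.9 ± 23.3 CPM (SD, n = 4 each; log2 fold change 2.70 ± 0.23, SE; adjusted p = 0.00175). NPR1 (100061959), the guanylate cyclase receptor of atrial natriuretic peptide, rose 1.55-fold (adjusted p = 0.00342) and NPR3 (100068418), the natriuretic peptide clearance receptor, 2.12-fold (0.0333). AGTR1 (100059005), the angiotensin II receptor, rose from 0.705 ± 0.156 to 1.58 ± 0.661 CPM (adjusted p = 0.0243), and LNPEP (100073222), a peptidase that degrades vasopressin and oxytocin, fell 1.95-fold (adjusted p = 0.00237). The list's calls numbered 3 without mare 1. AGTR1 was lost without mares 1, 2 and 3 (adjusted p = 0.0702, 0.0853 and 0.107) and NPR3 without mares 1 and 4 (0.0731 and 0.123), and by other methods AGTR1 was lost in DESeq2 (0.123) and NPR3 with no filter (0.0513). The 8 genes AGTR2, NPPA, NPPB, VIP, ADCYAP1, TAC1, UTS2B and UTS2R had 0 counts in all 8 libraries, which allows up to 3 counts in each.

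Genes of the calcium signal on which endothelin receptors act moved both ways, with 3 of 20 higher and 4 lower (median log2 fold change -0.0941). The share of all genes that changed was 16.7%. ITPR1 (100052808), a calcium release channel of the endoplasmic reticulum, rose from 48.7 ± 15.4 to 114 ± 37.8 CPM (SD, n = 4 each; adjusted p = 5.48e-04), and its relative ITPR3 (100053019) fell from 529 ± 66.2 to 385 ± 78.3 CPM (adjusted p = 0.00512). MYLK (100070482), the myosin light chain kinase, rose 1.39-fold (adjusted p = 0.00868) and the calcium channel CACNA1C (100049924) 1.49-fold (0.0235). ROCK2 (100072339), a kinase that sustains contraction, fell 1.43-fold (0.00810), the phospholipase PLCB4 (100051485) 1.29-fold (0.00843), and GNAQ (100063136), the G protein subunit that couples endothelin receptors to phospholipase C, 1.17-fold (0.0414). GNAQ passed in 4 of 13 alternatives and was lost without any 1 of the mares (adjusted p from 0.0555 to 0.133), CACNA1C was lost without mares 1, 2 and 3 (0.103, 0.0710 and 0.0896), MYLK was lost without mare 1 (0.0578), and without mare 1 the list held 4 calls.

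Genes known to respond to low oxygen showed 4 rises and 1 fall among 23 tested (median log2 fold change 0.0110). ADM and EDN1 are counted among such genes in other species. Of all genes, 16.7% changed and the median was 0.00422. SLC2A1 (100034080), a glucose transporter, rose 2.09-fold (adjusted p = 5.48e-04), NDRG1 (100068997) 1.64-fold (0.00671), the prolyl hydroxylase EGLN3 (100056635) 2.02-fold (0.0123) and EPAS1 (100068622), an oxygen-regulated transcription factor that is abundant in endothelium, 1.30-fold (0.0232). HK2 (100009677), a hexokinase, fell 1.67-fold (0.0116). The list held 2 calls without mare 1, since EGLN3 (adjusted p = 0.0677), EPAS1 (0.107) and HK2 (0.0629) were then lost. HK2 was also lost without mares 2 and 3 (0.0549 and 0.0548) and EPAS1 without mare 4 (0.0807).

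**Figure D4:**
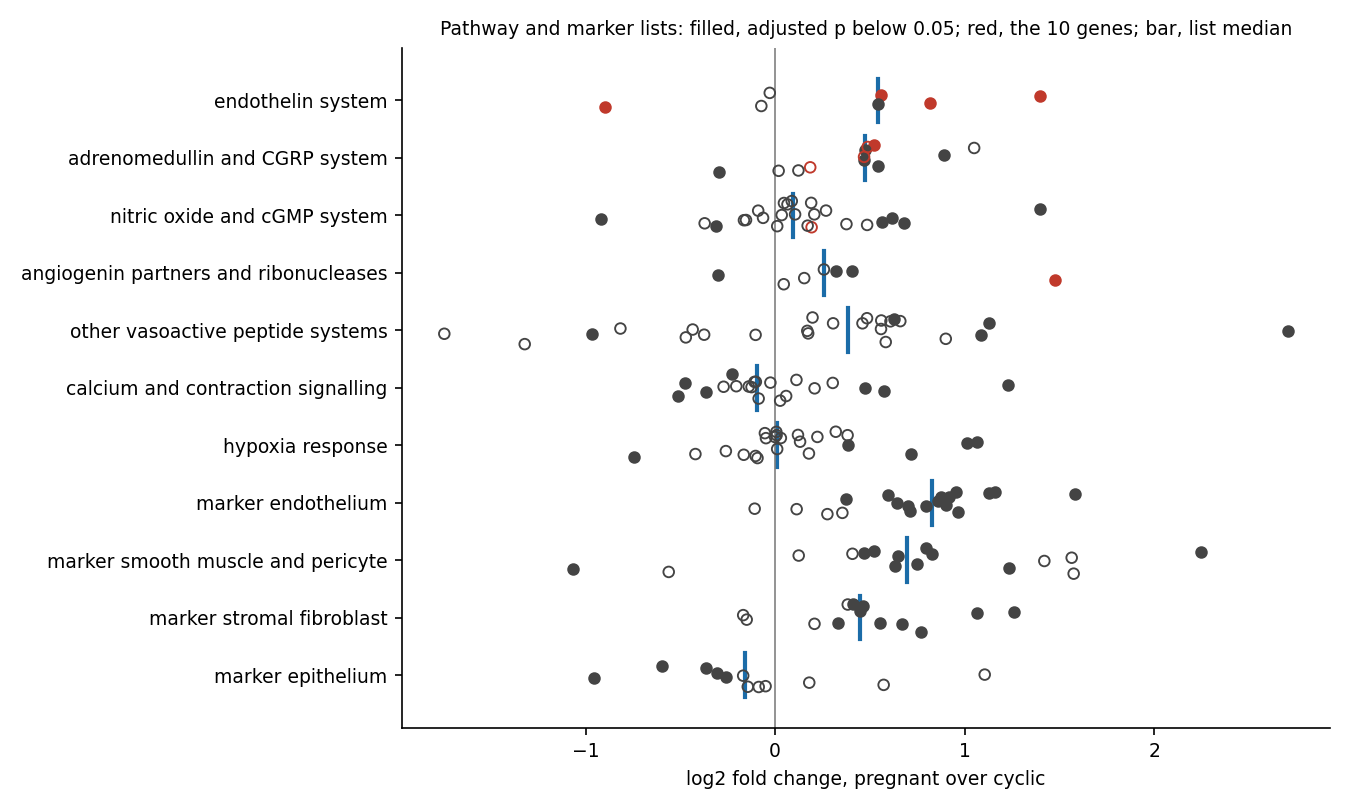
Log2 fold change of pregnancy over cycle (horizontal axis) for each tested gene of the pathway lists and of 4 cell marker lists, filled where the adjusted p was below 0.05, with the 10 genes in red and the list median as a blue bar. The endothelial list has the highest median, at 0.83, and the epithelial list the lowest, at -0.16.

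Markers of 4 cell lists moved as well, where 8.53% of all genes rose and 8.19% fell. Which cells of these biopsies express the 10 genes was not tested. Of 20 endothelial markers tested, 16 rose and 0 fell, among them the junction genes CLDN5 (3.00-fold; adjusted p = 1.58e-04) and CDH5 (1.83-fold; 3.71e-04), and their summed level ran from 1305 to 2002 CPM in the cycle and from 1830 to 2412 CPM in pregnancy. Of 16 smooth muscle and pericyte markers, 9 rose and 1 fell, among them MCAM (2.35-fold; 5.94e-04) and RGS5 (1.55-fold; 0.00208), with sums of 445 to 697 and 716 to 1046 CPM. Of 13 stromal fibroblast markers 9 rose and 0 fell, among them DPT (2.09-fold; 4.77e-04) and MFAP4 (2.40-fold; 5.48e-04), with sums of 3933 to 5347 and 4640 to 5385 CPM. Of 12 epithelial markers 0 rose and 5 fell, among them the hedgehog ligand IHH (1.94-fold; 5.16e-04) and the keratin KRT7 (1.51-fold; 0.00384), with sums of 2813 to 3457 and 2300.4 to 2786 CPM. No marker of these 4 lists was at 0. The part of cell composition in the changes of the 10 genes was not tested.

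Set beside the median of the endothelial markers in the same mare, the genes fell on either side of it. ANG exceeded it in 4 of 4 mares, by 0.43, 0.96, 0.72 and 0.66 on the log2 scale in mares 1 to 4. EDN1 exceeded it in 4 of 4 mares by 0.0463 to 1.36, and EDNRA in 3 of 4. RAMP2 was close to it in mare 1 (-0.00900) and 0.27 to 0.42 below it in the others. ECE1, CALCRL, RAMP3 and NOS3 were below it in 4 of 4 mares, with mean differences of -0.23, -0.59, -0.31 and -0.59, and EDNRB was below it in 4 of 4, by differences of -2.05 to -1.33. ADM was below it in mares 1 and 3 and above it in mares 2 and 4. Against the smooth muscle and pericyte markers, ANG was above the median in 4 of 4 mares, EDN1 and EDNRA in 3 of 4, RAMP2 in 2 of 4 and ECE1 in 1 of 4, with mean differences of 0.77, 0.75, 0.14, -0.18 and -0.15. ADM and NOS3 were above that median in 2 of 4 mares, RAMP3 in 1 of 4 and CALCRL in 0 of 4, with mean differences of -0.23, -0.51, -0.23 and -0.51. Against the stromal markers, ANG and EDN1 were above the median in 4 of 4 mares, EDNRA and ECE1 in 3 of 4, and RAMP2 and RAMP3 in 2 of 4, with mean differences of 1.03, 1.01, 0.40, 0.11, 0.0861 and 0.0266. ADM was above the stromal median in 2 of 4 mares and CALCRL and NOS3 in 1 of 4, with mean differences of 0.0351, -0.249 and -0.247. EDNRB was below the median of each of these lists in 4 of 4 mares. These are descriptions with no test, and the marker list, like the gene lists, was written with earlier results of these data known.

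**Figure D5:**
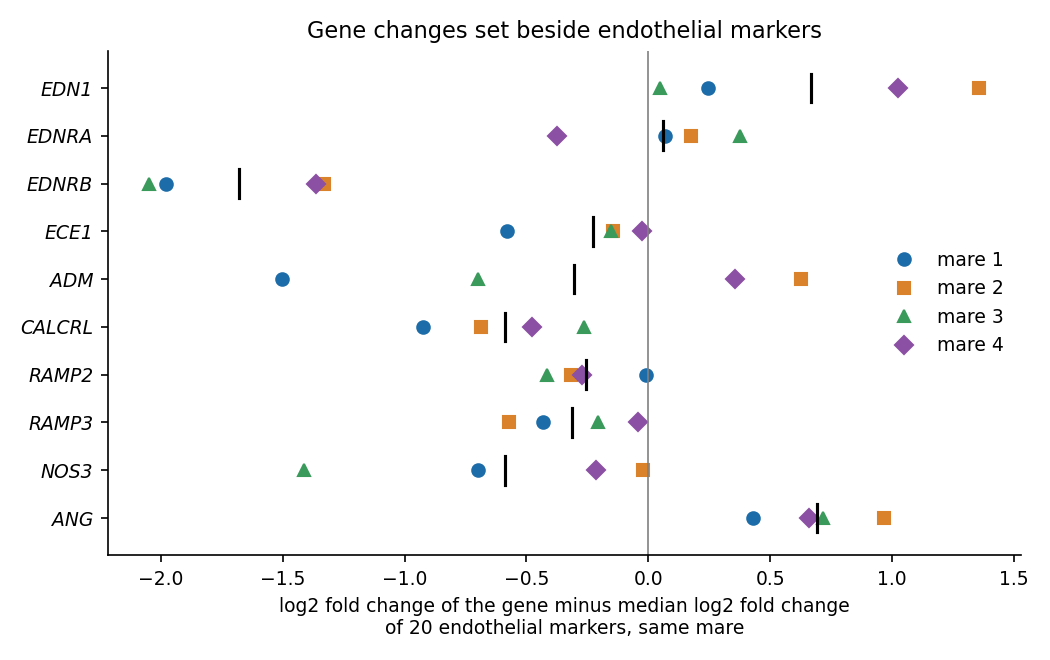
Log2 fold change of each gene minus the median log2 fold change of the 20 tested endothelial markers in the same mare (horizontal axis), with a coloured point per mare and the mean of 4 mares as a black bar. All points of ANG and EDN1 lie to the right of 0, and all points of EDNRB, ECE1, CALCRL, RAMP2, RAMP3 and NOS3 lie to the left.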

How the data were processed

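Poly(A) RNA of 8 endometrial biopsies (RIN 8.3 to 9.2) was sequenced from libraries that do not mark strand, per the labels' protocols. Per the submitters' processing notes, HISAT2 2.0.3 and Trimmomatic 0.32.2 were used. For the counting tool, annotation and build, the sources used here state none, so no coordinates are printed. The authors deposited raw counts per gene and a second table of scaled signal values, which equals TMM-scaled CPM for 14037 genes above 2 CPM in at least 2 libraries. Of 24942 gene IDs, 21420 (85.9%) matched the RefSeq table, which gave the symbols.

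Counts were tested with edgeR 4.0.16 in R 4.3.3 by the quasi-likelihood F-test (TMM scaling, filterByExpr with a minimum count of 10, mare as block), with Benjamini-Hochberg adjustment over 15342 genes and a threshold of 0.05. The standard error is the absolute log2 fold change divided by the square root of F. The 4 mares are separate animals. The pairing comes from the series' design text. Deviations from the mean of each state correlated by 0.38 to 0.54 for libraries of the same mare and by at most -0.0152 between mares. Centring on the state mean itself pushes the between-mare values below 0, so their sign is no support for the pairing. Library pairs differed by more than sampling noise (lowest chi-square per degree of freedom 24.6). A floor of 3 counts equals 0.298 CPM in the shallowest library. Code was tested on simulated data.

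The genes and lists were chosen with earlier results of these data known. All 10 genes were named, with up to 4 called genes of smallest p per pathway list (filled to 2 by abundance), the 3 genes nearest in profile to each called gene, 2 markers of smallest p from each of 4 marker lists, and markers at 0 (1 marker list is not reported here). NOS2, PLXNB2, ASS1, CRCP, NPR3, MYLK, CACNA1C, GNAQ, EPAS1, GUCY1A1, GUCY1B1, ECE2, EDN2, EDN3, EPCAM and the genes at 0 counts were named after their values were seen. Alternatives were other scalings, filters and tests, a fit with no mare block, leaving out each mare, and limma on the deposited signal values.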

Additional observations from a re-analysis of the deposited data

Results flagged for a closer look

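Among 138 groups of 4 libraries examined, 12 had 1 library apart from the rest of its group, and chance flags about 1 in 20 groups. Of the 10 genes, ADM had 103 CPM in the pregnant library of mare 2, the next value being 44.2, and RAMP3 had 4.06 CPM in the pregnant library of mare 2, the next being 5.39. In cyclic libraries, ADM5 stood at 1.67 CPM in mare 1 (next 1.01), SDC4 at 149 CPM in mare 3 (next 106), MFAP4 at 34.4 CPM in mare 3 (next 17.1), TF at 1.43 CPM in mare 4 (next 0.559) and MXRA8 at 133 CPM in mare 1 (next 102). In pregnant libraries, SDC4 stood at 119 CPM in mare 2 (next 148), RGS5 at 93.9 CPM in mare 1 (next 84.7), IHH at 780.1 CPM in mare 4 (next 506), CACNB2 at 4.44 CPM in mare 3 (next 7.85) and GNAQ at 80.04 CPM in mare 1 (next 57.1).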

How the results depend on the processing

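The count of 6 called genes among the 10 was kept under RLE scaling, library totals, no filter, the likelihood ratio test, DESeq2, limma-voom and limma on the deposited scaled values. EDN1 is in the deposited values only through its pregnant libraries, as its cyclic levels were at most 1.43 CPM. Its call there is therefore no further support. The count itself was 5 under the filter above 2 CPM in 4 libraries, where EDN1 was not tested, and 4 to 6 when a mare was left out. With no replicate block for the pairing by mare, 1 of the 10 genes (ANG) and 389 of all genes were called, against 6 and 2565. Of the other genes named from the lists, KNG1, SLC2A1, NDRG1, CLDN5, CDH5, MCAM, RGS5, DPT and IHH kept their calls in that fit. Leaving out a mare gave 1266 (without mare 1) to 2057 called genes. The log2 change of the EDNRB to EDNRA ratio ran from -1.99 to -1.51 when a mare was left out. FURIN, not called in any fit, had a log2 fold change of 0.00764 with library totals and -0.15 (without mare 4) to 0.0897 (without mare 3) when a mare was left out, against -0.03. GUCY1A1 had -0.0453 (without mare 2) to 0.12 (without mare 4), against 0.07. The cause of these shifts was not tested. Depth limits EDN1, NOS2, AGTR1 and ADM5, with fewer than 60 counts in each library. The design has 4 mares and 1 day, and leaves cell composition and RNA per cell unresolved.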

Other observations

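Of the trophoblast markers, CDX2 and HAND1 were at 0 counts in all 8 libraries, and of 4 tested 1 rose, TFAP2C (2.04-fold; adjusted p = 0.0171), a gene chosen after its value was seen. The summed level of the list was 5.70 to 7.60 CPM in cyclic and 5.80 to 14.0 CPM in pregnant libraries. Of 10 T and NK cell markers tested 4 rose (CD3D, GZMK, CCL5 and SKAP1) and 0 fell. Of 4 B and plasma cell markers 2 rose (CD79A and PRDM1) and 0 fell, and of 5 lymphatic endothelial markers 2 rose (PDPN and MMRN1) and 0 fell. Of 10 macrophage and dendritic cell markers 1 rose (CD14) and 0 fell. These names were also chosen after their values were seen. Of all genes, 8.53% rose and 8.19% fell.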
